A study of Mus musculus with 6 samples.

Results

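The intervals described here are HA-Tex10 sites of mouse primordial germ cell-like cells (PGCLCs). They lay over 1 kb from the start of every protein-coding transcript and shared no base with a listed H3K4me3 interval. PGCLCs are made in culture as a model of the embryonic cells that later form gametes. Bound chromatin was sequenced after immunoprecipitation (ChIP-seq) from untreated PGCLCs of strain 129Sv/J at day 2, in 2 samples with an antibody to the HA tag, 2 with an antibody to H3K4me3 and 2 of input DNA. Tex10 carried the HA tag at its C terminus in these cells, and all groups share strain, day and the lack of treatment. Whether the tagged line is 1 clone is not given in the sources used here, and no sample of cells without the tag was used. The deposited lists give 1 set of intervals per antibody, with no score and no value per replicate. No spread between replicates could therefore be computed, the depth is unknown, and the identity of the cells could not be checked against marker genes. Intervals of 1 list are not replicates of a condition, so each test below compares groups of intervals. Each test also treats neighbouring intervals and copies of 1 repeat as independent, which they are not.

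Of 4331 deposited HA-Tex10 intervals, 4129 lay on chromosomes 1 to 19. Of these, 1266 shared no base with an H3K4me3 interval, and 1095 of the 1266 lay over 1 kb from every transcription start site (TSS) of a protein-coding transcript in GENCODE release M21. Of the 1095, 309 fell in 1 Mb windows that held 10 or more HA-Tex10 intervals and were set aside. The remaining 786 intervals, 18.1% of the deposited list, are called unmarked distal intervals here. They were chosen by the positions of the HA-Tex10 and H3K4me3 intervals themselves. Their position, their lack of H3K4me3 and their local density were fixed by this choice and are given as description. The interval nearest to a TSS lay 1001 bp from Gm3500 and the next 1034 bp from Prdm12, while the farthest interval left out by that limit lay 973 bp from a TSS of Vps4a. The smallest distances to H3K4me3 were 4 and 6 bp, with adjacent bases counted as 1 bp apart, and intervals that met the mark by 1 bp were left out. Windows with 9 HA-Tex10 intervals contributed 16 of the intervals kept, and windows with 10 held 30 of those set aside.

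Tex10 is a nuclear protein of the complex with Pelp1, Wdr18 and Senp3 that takes part in assembly of the large ribosomal subunit, and in mouse embryonic stem cells it is also known as a Sox2 partner at enhancers. H3K4me3 marks active promoters. CTCF is the zinc finger protein that anchors chromatin loops and binds many sites away from promoters. The U1, U2 and U5 small nuclear RNAs are spliceosome components made by RNA polymerase II from short genes with no protein product, and U3 is the small nucleolar RNA of early ribosomal RNA processing. Interspersed and tandem repeats are sequences present in many copies, to which short reads cannot always be assigned by position.

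The sequence kinds that recur in the results are shown first, all from the reference assembly GRCm38.p6 of RefSeq, which comes from another mouse strain than the cells. The CTCF word, written CCANNAGNNGGC with N for any base, is in capitals in 4 of the 5 widest single-copy intervals that held it.
Interval near Ephx1, chr1:180976478-180976537, plus strand: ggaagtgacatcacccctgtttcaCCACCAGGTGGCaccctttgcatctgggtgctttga
Interval near Alpl, chr4:137801631-137801690, minus strand: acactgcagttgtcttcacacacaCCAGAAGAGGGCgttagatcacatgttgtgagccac
Interval near Mettl7a3, chr15:100324176-100324235, plus strand: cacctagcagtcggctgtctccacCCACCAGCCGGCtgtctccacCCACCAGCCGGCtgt
Interval near Wwc2, chr8:48011114-48011173, minus strand: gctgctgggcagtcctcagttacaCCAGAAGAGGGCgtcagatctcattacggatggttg

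Examples of the small RNA genes are shown with the first bases of the RNA in capitals and the sequence before its 5′ end in lower case. The last line is the centre of the interval at the U2-like gene Gm22973.
Rnu1a1, chr11:87422807-87422966, plus strand: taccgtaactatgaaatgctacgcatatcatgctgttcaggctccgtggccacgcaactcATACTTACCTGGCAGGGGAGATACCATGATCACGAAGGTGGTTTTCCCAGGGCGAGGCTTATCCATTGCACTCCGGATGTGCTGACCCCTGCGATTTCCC
Rnu3b1, chr11:87443177-87443336, plus strand: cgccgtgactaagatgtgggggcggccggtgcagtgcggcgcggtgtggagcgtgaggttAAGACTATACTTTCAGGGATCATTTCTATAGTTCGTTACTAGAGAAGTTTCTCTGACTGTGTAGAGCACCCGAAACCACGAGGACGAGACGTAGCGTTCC
Gm22973, chr12:59040323-59040472, plus strand: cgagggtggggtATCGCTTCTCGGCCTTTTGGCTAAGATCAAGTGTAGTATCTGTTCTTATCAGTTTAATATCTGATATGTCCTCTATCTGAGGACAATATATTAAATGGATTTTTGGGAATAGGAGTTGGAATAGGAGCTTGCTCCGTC

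The 3 largest families of intervals with similar sequence are shown by the centre of their widest interval, with no letters marked.
Family 1, chr17:94301962-94302111, plus strand: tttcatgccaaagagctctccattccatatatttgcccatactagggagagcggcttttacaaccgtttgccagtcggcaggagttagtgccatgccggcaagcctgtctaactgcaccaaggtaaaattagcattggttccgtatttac
Family 2, chr13:36853274-36853423, plus strand: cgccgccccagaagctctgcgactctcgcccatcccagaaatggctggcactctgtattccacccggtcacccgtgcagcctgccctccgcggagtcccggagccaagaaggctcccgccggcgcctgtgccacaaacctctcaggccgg
Family 3, chr5:105728864-105729013, plus strand: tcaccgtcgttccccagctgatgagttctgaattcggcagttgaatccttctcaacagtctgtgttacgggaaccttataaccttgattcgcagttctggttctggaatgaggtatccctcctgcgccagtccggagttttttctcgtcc

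Tandem repeats are shown from wide intervals. The first bases are in capitals, over the length of the unit that matched best in the stretch of the whole interval. Near Npvf and Arid5b the bases that follow the capitals are not an exact copy of them.
Interval near Mepe, chr5:104331445-104331524, plus strand: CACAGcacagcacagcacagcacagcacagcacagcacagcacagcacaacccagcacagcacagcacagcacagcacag
Interval near Npvf, chr6:50636159-50636238, plus strand: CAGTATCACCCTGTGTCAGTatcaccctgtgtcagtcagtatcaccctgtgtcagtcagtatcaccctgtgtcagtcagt
Interval near Arid5b, chr10:68375737-68375816, plus strand: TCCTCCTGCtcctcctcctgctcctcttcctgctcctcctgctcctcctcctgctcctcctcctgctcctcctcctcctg

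The unmarked distal intervals were a mixture of repeats and single-copy sites (plot of the sequence kinds). Over 50% of them, 426 of 786 or 54.2% (95% Wilson interval 50.7 to 57.7%), were mostly repeated, meaning that most of their words of 32 bases had a further copy on chromosomes 1 to 19, X or Y. Reference windows of 232 bp, the median width of all HA-Tex10 intervals on chromosomes 1 to 19, were placed every 100 kb. These windows were mostly repeated in 14.2%, and all HA-Tex10 intervals on chromosomes 1 to 19 in 38.2%. The other 360 intervals are called single-copy, although up to 50% of their words may recur and some had similar sequence elsewhere in the list. When each interval was put in 1 kind, 19 met a small RNA gene, 78 were mostly tandem repeat, 172 were repeated and belonged to a family of 3 or more, and 167 were repeated outside such a family. Single-copy intervals outside the first 2 kinds comprised 35 with a CTCF word and 315 without one. The repeated intervals in families had a median of 527 copies of each word, against 31.5 for those outside families and 14 for tandem repeats.

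**Figure D1:**
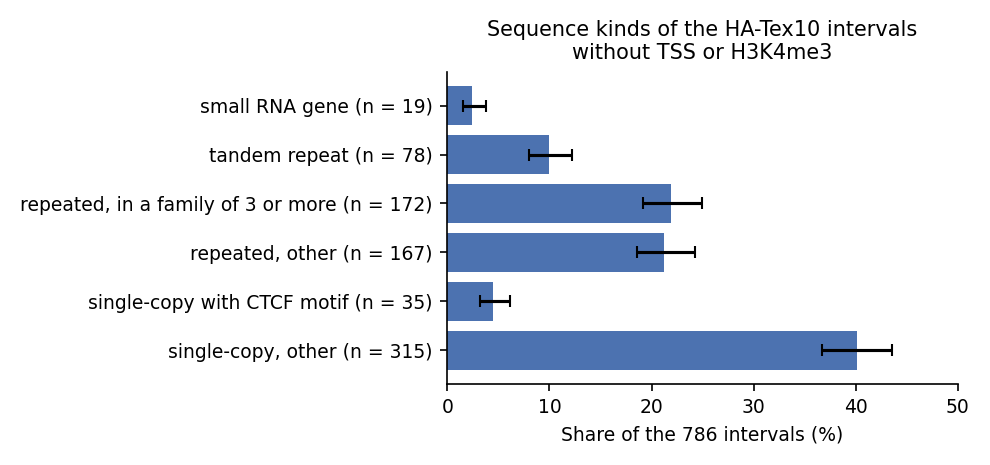
Share of the 786 unmarked distal HA-Tex10 intervals in each of 6 exclusive sequence kinds, in percent. Bars give the share and lines the 95% Wilson interval, and the longest bar is the single-copy kind without a CTCF word, at 40.1%.

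The mostly repeated share of the unmarked distal intervals was below that of HA-Tex10 intervals with H3K4me3 away from a TSS. It was above that of intervals with H3K4me3 at a TSS. The groups with H3K4me3 were also taken outside dense windows. Among the 990 such intervals with H3K4me3 away from a TSS, 68.8% were mostly repeated, against 54.2% of the unmarked distal ones, which puts the latter at -14.6 points (Fisher's exact test, two-sided, adjusted p = 1.06e-09 over 6 tests). Copies of 1 repeat count separately in this test. Relatives within 1 family, described below, made up 35.6% of the intervals with H3K4me3 away from a TSS, against 5.34% of the unmarked distal ones. Relatives of another family, with 3 unmarked distal intervals or 0.382%, made up 14.7% of the intervals with H3K4me3 away from a TSS, and these sets may overlap. The difference without these families was not tested, so it cannot be read as one of repetition in general. Among the 1207 with H3K4me3 at a TSS the mostly repeated share was 2.65% (exact test, adjusted p = 5.9e-168). Among the 309 intervals with neither feature in dense windows it was 60.8%, a difference that did not pass the threshold (exact test, adjusted p = 0.0598). That last comparison depended on the settings: it passed when chromosome 8 was left out (difference of -9.56 percentage points, exact test, adjusted p = 0.0288), and its sign turned when windows with 5 or more intervals were set aside (6.09 points, exact test, adjusted p = 0.0535).

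**Figure D2:**
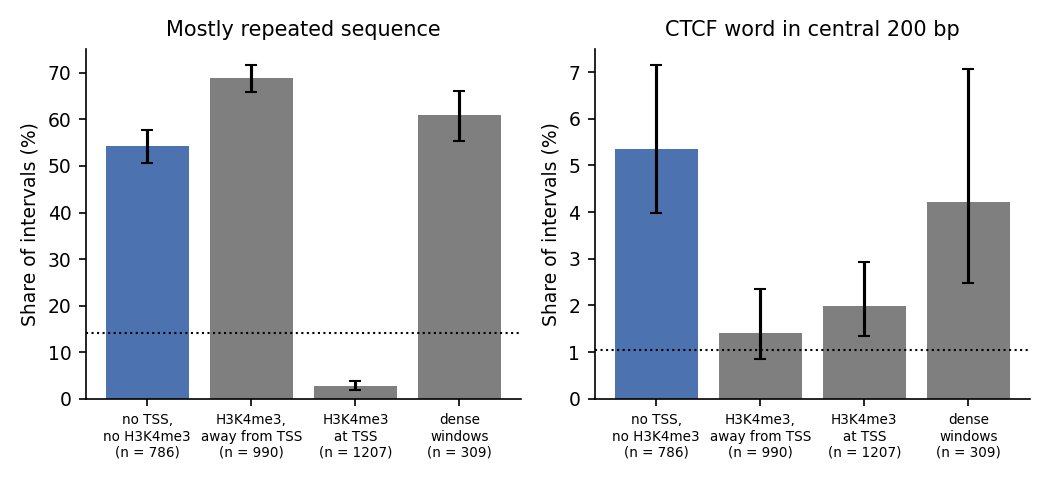
Shares of mostly repeated intervals (left) and of intervals with a CTCF word in the central 200 bp (right), in percent, for the unmarked distal intervals (blue) and 3 other groups of HA-Tex10 intervals (grey). Lines are 95% Wilson intervals and dotted lines the reference windows, at 14.2% and 1.05%, and the blue bar is above the dotted line in both panels.

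By sequence similarity, 18 families held 194 of the 786 intervals, or 24.7%, while 560 intervals, tandem repeats among them, were joined to no other. A family was built by alignment at 80% identity or more over at least 60% of the shorter interval, with tandem repeats left out. The largest had 66 intervals on 18 chromosomes, all mostly repeated, with a median of 571 copies per word and few relatives elsewhere in the list, 14 in all. The second had 42 intervals on 16 chromosomes at a median of 576.5 copies, and it differed from the first in its relatives. Its sequence was shared with 404 further HA-Tex10 intervals, of which 352 carried H3K4me3 away from a TSS. That is 35.6% of the intervals with H3K4me3 away from a TSS, against 5.34% of the unmarked distal ones. Of its 42 intervals, 23 held the YY1 word AANATGGC within the central 200 bp, as copies of 1 sequence. The word was in 5.60% of all 786 intervals, 4.36% of genome windows, 12.2% of all HA-Tex10 intervals and 30.1% of those with H3K4me3 away from a TSS. YY1 is a zinc finger factor of promoters and enhancers. The third had 27 intervals on 15 chromosomes with a median of 497.5 copies and 6 relatives in the list. The next held 10 loosely related intervals, 6 of them mostly repeated, and the one after it was an array of U1 genes described below. No repeat library was used, so the families carry no names.

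Tandem repeats made up 9.92% of the unmarked distal intervals (78 of 786, 95% interval 8.02 to 12.2%), against 3.83% of all HA-Tex10 intervals on chromosomes 1 to 19. The repeated unit was 1 to 6 bp long in 25 of the 78 and longer in 53, with a median of 18 bp. The widest, 749 bp in an intron 5782 bp from the nearest coding TSS, that of Mepe, was tandem repeat over 91.5% of its length, mainly of a 5 bp unit. An interval of 552 bp between protein-coding genes, 17965 bp from Npvf, had a best-matching unit of 20 bp. One of 426 bp, 96824 bp from Arid5b, had a best-matching unit of 9 bp and a median of 101 copies per word. The telomere repeat word, a pair of hexamer copies on either strand, occurred in 10 intervals, or 1.27%, against 0.0109% of all 200 bp windows of chromosomes 1 to 19. Of these 10 intervals, 9 were tandem repeats, they lay on 9 chromosomes, and their distances to H3K4me3 ran from 12389 to 356614 bp. The share was 1.31% among intervals with H3K4me3 away from a TSS, so the word was not particular to the unmarked ones.

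The CTCF word was more frequent in the unmarked distal intervals than in marked ones. It lay in the central 200 bp of 42 of the 786 unmarked distal intervals, or 5.34% (95% interval 3.98 to 7.14%), against 1.05% of all 200 bp windows of chromosomes 1 to 19 and 2.64% of all HA-Tex10 intervals there. The share was 1.41% among intervals with H3K4me3 away from a TSS (Fisher's exact test, two-sided, adjusted p = 6.62e-06) and 1.99% among those with H3K4me3 at a TSS (adjusted p = 8.81e-05). Among intervals with neither feature in dense windows it was 4.21%, and the difference of 1.14 percentage points did not pass the threshold (exact test, adjusted p = 0.539). Single-copy intervals carried most of the matches: 35 of 360, or 9.72%, held the word, against 7 of 426 mostly repeated ones, or 1.64%. With mostly repeated intervals left out of every group, the unmarked distal intervals exceeded those with H3K4me3 away from a TSS by 6.81 points (exact test, adjusted p = 0.000674) and those with H3K4me3 at a TSS by 7.68 points (adjusted p = 5.22e-09). Restricted to intervals wider than the median of the list, neither difference passed (2.96 points, exact test, adjusted p = 0.0555, and 2.48 points, adjusted p = 0.0959). A stricter core with the free positions partly fixed was rarer, in 8 single-copy intervals or 2.22%, and its difference from intervals with H3K4me3 away from a TSS did not pass either (0.868 points, exact test, adjusted p = 0.0674).

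The CTCF word was more frequent around the interval centres than in the flanks. In single-copy unmarked distal intervals, the 2 central bins of 100 bp held the word in 5% and 5.56% of intervals and the next bin on each side in 5.28% and 4.44%, so the raised stretch was wider than the median interval of 193.5 bp. Bins 1 to 2 kb away held one in a mean of 1.31% (0 to 2.22%), and the central pair was 4.04 times that mean. At single-copy intervals with H3K4me3 at a TSS the same ratio was 1.04. Of the 35 intervals with a match in the central 200 bp, 26 contained one inside their own borders. The 35 intervals lay on 14 chromosomes, with 20 between protein-coding genes, 11 in their introns and 4 in their exons. They were a median of 184 bp wide, against 194 bp for single-copy intervals without the word, at the same median GC content of 51.5%.

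**Figure D3:**
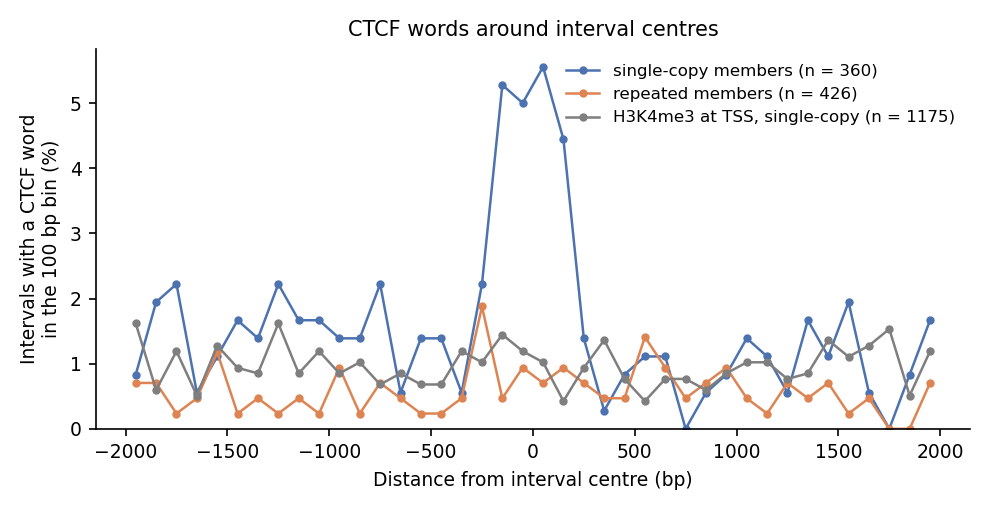
Share of intervals, in percent, with a CTCF word centred in each 100 bp bin from 2 kb before to 2 kb after the interval centre, for single-copy and repeated unmarked distal intervals (members) and for single-copy intervals with H3K4me3 at a TSS. The single-copy line rises to 5.56% at the centre and the other lines stay below 2% in every bin.

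Individual CTCF intervals differed in the sequence that held the word. The widest, 332 bp in an intron 19524 bp from the Ephx1 TSS, had its match 27 bp from the centre in unmasked sequence. An interval of 328 bp in an intron near Mettl7a3 held 3 matches spaced within a short tandem repeat, of which 2 are in the printed stretch. The intervals near Alpl (332 bp) and Wwc2 (318 bp) shared a run of 17 identical bases around the word in the printed stretches. The word at both, ccagaagagggc, occurred in 5 intervals, each time in bases that the RefSeq reference marks as repeats. In 7 of the 35 intervals every match lay in such masked bases, and the other 28, or 7.78% of the single-copy intervals, had a match in unmasked bases.

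The unmarked distal intervals at small RNA genes were among the widest. There were 19, or 2.42% of the 786, a share close to the 2.3% among all HA-Tex10 intervals on chromosomes 1 to 19, so their number is not particular to the unmarked intervals. Their median width was 425 bp (157 to 683 bp), against 217 bp for the other 767, and they made up 3 of the 10 widest, 6 of the 20 widest and 12 of the 50 widest intervals. By alignment to RefSeq-named RNAs, 7 of the genes were U1-like, 3 U2-like, 4 U3-like and 4 U5-like, with 1 further snoRNA gene, Gm22128, in the imprinted Snurf region of chromosome 7. In 17 of the 19 the interval covered the 5′ end of the RNA, reaching a median of 196 bp upstream and 191 bp downstream of it (map of the intervals at small RNA genes). Rnu5g and Gm25099 were the exceptions, with intervals that began 27 and 64 bp inside the gene. The distances to H3K4me3 ran from 3.1 to 231 kb.

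**Figure D4:**
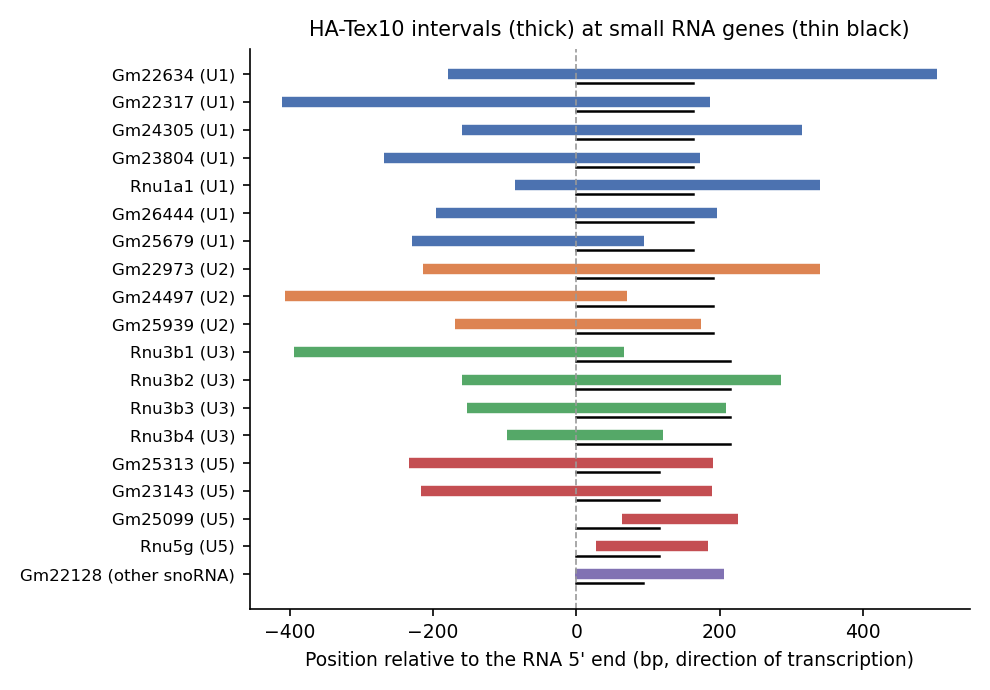
Extent of the 19 HA-Tex10 intervals at small RNA genes (thick, coloured by RNA type) relative to the 5′ end of the RNA, in bp, with the gene as a thin black line. In 17 rows the interval crosses the dashed line at the 5′ end, and the widest interval is the 683 bp one at Gm22634.

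Many of the small RNA intervals lay in arrays, the largest on chromosomes 12 and 11. On chromosome 12 a run of 6 intervals, chr12:54710129-54739032, covered 6 U1-like genes on both strands (Gm22634, Gm23804, Gm25679, Gm26444, Gm24305 and Gm22317), with widths of 324 to 683 bp. Of these genes, 5 were identical to Rnu1a1 over 164 bp and Gm24305 matched it at 99.4%. Across the whole intervals, flanks included, between 92.8 and 100% of the words occurred more than once, at a median of 2 copies, so the place of the reads is ambiguous there. On chromosome 11 a run of 5, chr11:87422782-87471654, lay within the Tex14 gene and covered Rnu1a1, Rnu3b1, Rnu3b3, Rnu3b4 and Rnu3b2, with widths of 219 to 462 bp. The 4 U3 genes were identical over 215 bp. In their intervals 88.5 to 100% of the words occurred more than once, at a median of 4 copies. In the Gm22128 interval 100% did, at a median of 46.5 copies. The place of the reads is ambiguous at these intervals too. The U2-like intervals at Gm24497 (477 bp), Gm25939 (344 bp) and Gm22973 (555 bp) and the U5-like ones at Gm25313 (425 bp), Gm23143 (407 bp), Gm25099 (163 bp) and Rnu5g (157 bp) rested on sequence that was less repeated, between 0 and 56.2% of words. Of 1292 snRNA genes annotated on chromosomes 1 to 19, 14 or 1.08% met an unmarked distal interval and 30 or 2.32% met any HA-Tex10 interval. No tRNA gene, of 386, met an unmarked distal interval, which allows a share of up to 0.777%, whereas 29 or 7.51% met some HA-Tex10 interval. H3K4me3 intervals met 111 of the 386. The choice left out HA-Tex10 intervals that meet the mark, so the count of 0 is given as description.

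The widest single-copy interval, 631 bp at chr9:123927910-123928540, lay 40.2 kb from the nearest coding TSS, that of Ccr1, a chemokine receptor gene, and 2.57 kb from H3K4me3. It opened a run of 4 single-copy intervals, of 271 to 631 bp, within 9.18 kb. The centre of the first is shown here because none of its 32-base words recurs elsewhere, so its place is not ambiguous in the reference.
Interval near Ccr1, chr9:123928150-123928299, plus strand: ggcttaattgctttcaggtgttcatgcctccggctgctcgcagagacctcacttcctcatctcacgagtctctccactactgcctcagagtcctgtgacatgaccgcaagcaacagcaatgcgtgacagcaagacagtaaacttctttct

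The next in width were an interval of 588 bp at the border of Zfp703, 3161 bp from its TSS, and one of 560 bp 5004 bp from Plk3, and the U2-like genes Gm22973 and Gm24497 came next.

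One unmarked distal interval lay in the Sox2 control region, the distal enhancer of Sox2 known from embryonic stem cells. The interval spanned 229 bp at chr3:34761338-34761566, 111 kb from the Sox2 TSS and 1.19 kb from H3K4me3, within the control region as the RefSeq annotation gives it. None of its words was repeated. Its sequence is shown whole, with the SOX word CTTTGT, on either strand, and the AP-1 word TGANTCA in capitals.
Sox2 control region, chr3:34761338-34761566, plus strand: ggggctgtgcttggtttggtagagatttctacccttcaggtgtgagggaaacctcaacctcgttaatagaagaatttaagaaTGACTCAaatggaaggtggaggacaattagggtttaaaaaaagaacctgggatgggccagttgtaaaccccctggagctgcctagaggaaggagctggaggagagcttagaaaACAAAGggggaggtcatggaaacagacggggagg

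The interval held no OCT octamer ATGCAAAT and no CTCF word, also not in the central 500 bp. In all, 5 of the 786 intervals, or 0.636%, met an annotated enhancer, against 0.412% of all HA-Tex10 intervals on chromosomes 1 to 19, a difference of a few intervals. They included intervals at Rnu1a1, at the Sifnos olfactory element near Dynll2 (197 bp) and near Bhlhe41 (138 bp).

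Other motif words varied by kind of interval and are given without a test. The genome windows, here and above, were not matched to the intervals in base composition, so these shares do not measure the preference of a factor. The NRF1 word GCGCNTGCGC, of a factor that binds promoters of housekeeping and mitochondrial genes, was in 8 intervals, or 1.02%, against 0.0574% of genome windows. All 8 were single-copy, 7 of them outside introns, at a median width of 166.5 bp and at 482 to 363341 bp from H3K4me3. In comparison, 8.95% of the intervals with H3K4me3 at a TSS held it. The KLF word CCCCACCC was in 3.56% of the 786 intervals and 7.22% of the single-copy ones, against 2.19% of genome windows and 4.94% of all HA-Tex10 intervals. The SP word GGGGCGGGG was in 1.40% and 2.5%, against 0.354% and 5.40%. The TFAP2 word GCCNNNGGC, of the family that includes the germ cell factor Tfap2c, was in 5.22% of the 786 and 8.61% of the single-copy intervals, against 2.76% of genome windows and 13.1% of all HA-Tex10 intervals. For the remaining words the share of all 786 intervals is set against that of genome windows. The ESRRB word TCAAGGTCA was in 0.636% against 0.427% and the TEAD word GGAATG in 15.5% against 10.8%. The E-box word CACGTG was in 2.93% against 1.99%, the TFIIIC B box word GTTCNANNC in 8.65% against 8.50% and the CREB word TGACGTCA in 0.127% against 0.111%. The OCT octamer was in 1.78% against 1.70%, the SOX word in 17.6% against 17.9%, the TCF/LEF word CTTTGA in 13.6% against 15.4%, the AP-1 word in 4.45% (7.22% of single-copy ones) against 5.96% and the GATA word AGATAA in 8.27% against 13.2%. The OCT-SOX composite TTGTNATGCAAA and the ZNF143 word ACTACANTTCC were in 0 of 786 intervals, which allows a share of up to 0.382% for each, above their genome shares of 0.0189% and 0.0502%.

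Places were read at the interval centre and from protein-coding genes only, so non-coding genes outside them count as between genes. By position, 515 of the unmarked distal intervals, or 65.5%, lay between genes, 239 or 30.4% (95% interval 27.3 to 33.7%) in introns and 32 or 4.07% in exons. Of the bases over 1 kb from a coding TSS, 59.5%, 37.2% and 3.30% fall in these places. Introns held 35.8% of the single-copy intervals, 51.3% of the tandem repeats and 17.4% of the repeated ones in families. The median distance to a coding TSS was 26.8 kb (interquartile range 9.16 to 94.6 kb), with 100 intervals within 5 kb and 42 beyond 500 kb. The median distance to H3K4me3 was 22.8 kb, and 83 intervals were within 1 kb of the mark. Single-copy intervals without a CTCF word lay nearest to it, at a median of 9574 bp, against 38526 bp for repeated intervals in families. A TSS of any annotated transcript, non-coding ones included, was within 1 kb of 74 intervals, or 9.41%. For 19 of the 74 it belonged to a protein-coding gene, at a transcript not itself classed as protein-coding.

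The intervals were narrow. Their widths had a median of 218.5 bp and quartiles of 129 and 269.75 bp, with extremes of 4 and 775 bp, and 62 were under 50 bp. Their central 200 bp had a median GC content of 51%, against 63% at intervals with H3K4me3, both at and away from a TSS, and 49% in dense windows.

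Chromosome 8 held the most unmarked distal intervals, 88 or 11.2%, with its dense windows set aside. Its share of all HA-Tex10 intervals on chromosomes 1 to 19 was larger, 17.6%, so the surplus there is not particular to the unmarked ones. That is 6.80 intervals per 10 Mb, against 1.47 to 4.25 on the other chromosomes. Of the 88, 66 were single-copy, which is 18.3% of all single-copy ones. Of the 88, 45 lay in windows with 5 to 9 HA-Tex10 intervals, so local density just under the limit of 10 moved with the count, and its part was not tested. Over all chromosomes, 229 intervals, or 29.1%, lay in such windows and 173 were the single HA-Tex10 interval of their window. With chromosome 8 left out, the share of mostly repeated intervals was 57.9% and that of the CTCF word changed by less than its 95% interval.

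**Figure D5:**
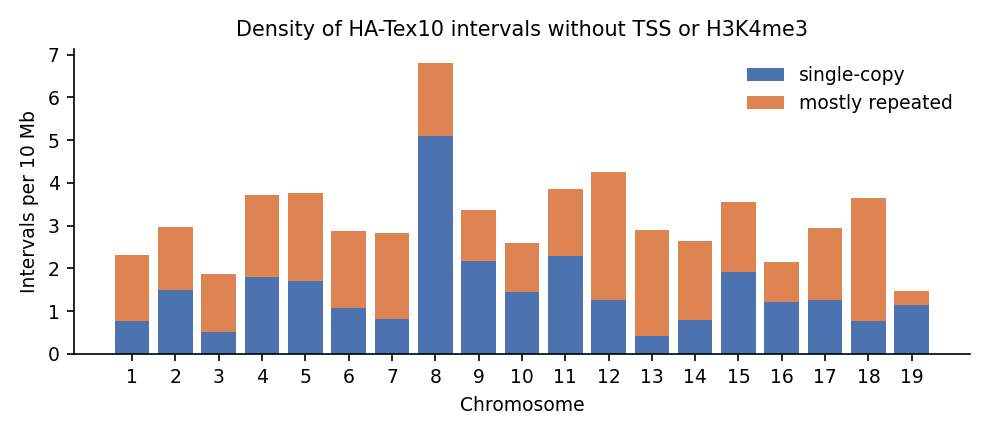
Unmarked distal HA-Tex10 intervals per 10 Mb on chromosomes 1 to 19, divided into single-copy (blue) and mostly repeated (orange). Chromosome 8 is highest at 6.80 per 10 Mb, of which most are single-copy, and chromosome 19 lowest at 1.47.

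Few genes of stem cell, germ cell or Wnt programmes had an unmarked distal interval in the gene or within 50 kb of a TSS. Over all 20722 protein-coding genes on chromosomes 1 to 19 with a TSS the share was 5.1%, and each list's share was read against it. In the pluripotency list 1 of 20 genes had one and in the germ cell list 1 of 15, in both cases Dppa3, a maternal and germ cell factor. Its interval lay 10.8 kb upstream of the Dppa3 TSS, while the nearest coding TSS was that of Gdf3, at 5339 bp. The interval was 351 bp wide and was mostly tandem repeat with a median of 26066 copies per word, so its place is uncertain. Of 23 negative regulators of Wnt signalling 0 had one, which allows a share of up to 13.0%. Of 14 genes of the Tex10 complex and ribosome assembly, 1 had one, Pelp1, the scaffold partner of Tex10. The Pelp1 interval was 81 bp wide, single-copy, 4.05 kb upstream of the TSS and 3947 bp from H3K4me3. A CTCF word lay in the 200 bp around its centre, but outside the interval itself and in masked bases. With 0 or 1 gene in each list, no list can be told apart from the share over all genes.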

How the data were processed

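ChIP-seq of HA-tagged Tex10 and of H3K4me3 was deposited as interval lists in BED format, 1 per antibody, whose start and end values in bp are the authors' own and whose score and strand columns are empty. The submitters' processing notes name Bowtie2 2.3.4.3, SAMtools 1.9, MACS2 2.1.2, HOMER and the build mm10, with no role or order. How the 2 replicates were combined, the threshold and the use of the input samples are not given in the sources used here. A further deposited list equals the HA-Tex10 intervals that meet H3K4me3 and was not used.

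Repeats were counted as 32-base words, intervals under 100 bp being widened to 100 bp, on chromosomes 1 to 19, X and Y of GRCm38.p6, which has the coordinates of mm10. An interval was a tandem repeat if over 50% of its bases lay in exact copies of units of 1 to 60 bp. Families were built by single linkage with BLAST 2.17.0 (E value up to 1e-05, 50 bp or more). Motif words were looked for in the central 200 bp, on either strand. Genes and small RNA genes came from GENCODE M21, tRNA genes and enhancers from RefSeq. Shares have 95% Wilson intervals, which cover counting only, and a count of 0 was bounded by 3 counts of the total. Differences between groups were tested by Fisher's exact test (two-sided, in scipy 1.17.1) with Benjamini-Hochberg adjustment over 6 tests and a threshold of 0.05. The methods were tested on simulated data. The intervals, gene lists, motifs, named-interval rule (the 5 widest of a kind, the widest of the 5 largest families, those at the limits and the genes nearest to them) and alternatives were chosen with earlier results of these data known. Chromosome 8 was left out as an alternative chosen after seeing the data, and the telomere, NRF1, small RNA and enhancer intervals were singled out after their values were seen. An annotated-enhancer interval and a small RNA sequence are not reported here.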

Additional observations from a re-analysis of the deposited data

How the results depend on the processing

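No paired analysis was possible because the lists, 1 for each antibody, give no values per replicate, and for the same reason no replicate could be left out. Of the alternative values, 85 kept their direction and side of the threshold or stayed within their interval, 13 moved further, 6 passed the threshold anew, 3 no longer passed it and 4 changed sign. The share mostly in repeated sequence moved to 59.1% with windows of 5 or more intervals set aside, 60.6% for intervals wider than the median, 49.6% with 50-base words, 42.1% with over 90% of words repeated and 57.9% without chromosome 8. Wider intervals numbered 289, with a median width of 296 bp. Without mostly repeated intervals the median width was 193.5 bp, the intron share 35.8% and the CTCF share 9.72%. The CTCF share was 12.1% in the central 500 bp and 1.27% with the stricter core, and GC content over 500 bp was 50.4%.

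The CTCF excess over intervals with H3K4me3 away from a TSS fell short of the threshold for wider intervals (2.96 points, exact test, adjusted p = 0.0555) and with the stricter core (0.868 points, adjusted p = 0.0674), and that over intervals with H3K4me3 at a TSS for wider intervals (2.48 points, adjusted p = 0.0959). Against dense windows, the repeated share passed with H3K4me3 within 1 kb counted as meeting (-8.21 points), TSS of all genes (-7.68), 50-base words (-7.34), over 90% of words (-9.02) and without chromosome 8 (-9.56), and turned to 6.09 with windows of 5 or more set aside. The CTCF share against dense windows passed in the central 500 bp (4.64 points) and turned to -0.0461 with TSS of all genes, -0.284 for wider intervals and -0.401 in the interval itself. With no dense windows set aside that group was empty and gave no value. The cause of these changes was not tested. Unknown depth and the lack of scores limit every value.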
